A study of Mus musculus with 5 samples.

Results

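Expression of 10 genes for angiogenic factors and their receptors was followed in the luminal layer of the mouse uterus around embryo attachment. The genes were chosen by name, with earlier results of these data known. They comprise the VEGF family ligands *Vegfa*, *Vegfb*, *Vegfc* and *Pgf*, the receptors *Flt1* and *Kdr* with the co-receptor *Nrp1*, and the factors *Adm*, *Angpt2* and *Angptl4*. All 10 were found among the 23420 genes of the count table, and all 10 passed the filter that kept 12918 genes, an average of 1 CPM (counts per 1e6) or more across the libraries. Averages used as filters were taken by library totals, and levels in CPM were scaled by TMM. Wild-type C57BL/6N females were used, with day 1 of pregnancy being the day of the vaginal plug, and the luminal layer was collected by laser microdissection. There were 5 RNA-seq libraries. They came from the morning of day 3, the morning and the evening of day 4, and the morning of day 5, where 2 were made. The day 5 pair consisted of the layer away from the attached embryo, labelled M pole, and the layer surrounding it, labelled AM pole, and these mice had received Chicago blue dye intravenously. In this pair, nearness to the embryo and pole of the uterus cannot be told apart. The labels of the day 3 and day 4 libraries name no pole. All groups carried the same wild-type genotype. Every condition had 1 library, so no difference could be checked against replicates and no p-value was computed. For other microdissected layers, the methods state that RNA of independent samples was combined into a single library per group, and whether this also holds for these wild-type libraries was not given in the sources used here.

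VEGF family ligands are secreted proteins that act on receptor tyrosine kinases, mostly on endothelial cells, where they drive sprouting and vascular permeability. VEGF-A binds the receptors encoded by *Flt1* (VEGFR1) and *Kdr* (VEGFR2), of which the latter carries most of the signal, whereas placental growth factor (*Pgf*) and VEGF-B bind only the former. Adrenomedullin is a vasodilator peptide that also promotes vessel growth and acts through a receptor formed by *Calcrl* with a Ramp protein, and angiopoietin 2 is a ligand of the Tie2 receptor. In the uterus, vascular permeability increases at the site of embryo attachment, which is what the blue dye reveals.

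Total counts ranged from 15334674 to 19529491 per library, so that 3 counts corresponded to between 0.160 and 0.190 CPM. The epithelial identity of the libraries was checked with 12 epithelial marker genes, each of which had more than 3 counts in every library, and their summed level ranged from 5126 to 9052 CPM. Uterine gland markers summed to between 1.27 and 30.9 CPM and were highest around the embryo, where *Lif* alone gave 17.9 CPM and the other 5 gave 12.95 CPM, against at most 4.00 CPM elsewhere. The paper describes *Lif* as glandular before attachment and as induced in nearby stroma on day 5. *Lif* thus does not mark glands alone around the embryo. The gland transcription factor gene *Foxa2* had 32, 51, 0, 2 and 21 counts from day 3 morning to day 5 around the embryo. Stroma markers summed to between 385 and 583 CPM and leukocyte markers to between 96.1 and 375 CPM, both lowest around the embryo. *Hand2* gave 134 CPM of the stroma sum around and 20.7 CPM away from the embryo, and the other 8 stroma markers 251 and 492 CPM. Of the 9 stroma markers 1 was higher around the embryo than away from it, 4 lower and 4 within 2-fold. Of the 7 leukocyte markers that passed the filter 1 was higher and 6 lower. The library around the embryo stood apart from the others. Pericyte and smooth muscle markers summed to 416 CPM there and to between 20.9 and 48.4 CPM elsewhere, of which *Des*, which encodes desmin, gave 359 CPM around and 19.7 CPM away from the embryo and the other 7 markers 57.6 and 28.7 CPM. Of the 8 markers of that list 5 were higher around the embryo than away from it and 1 lower. Embryo and trophoblast markers summed to 151 CPM there and to between 5.38 and 13.8 CPM in the other libraries. Of 13 embryo and trophoblast markers, 6 were at 0 counts in the other 4 libraries, and 5 of these 6 had more than 3 counts around the embryo, for example *Zfp42* with 246 and *Pou5f1* with 68. The sum over 15 endothelial markers was 135 CPM around the embryo and between 25.4 and 76.7 CPM elsewhere. More of that sum came from *Cdh5*, with 1229 counts around the embryo and between 48 and 171 elsewhere, than from the other 14 markers, which summed to 62.5 CPM around the embryo and to between 22.7 and 69.6 CPM elsewhere. Of the 13 endothelial markers that passed the filter, 2 were higher around the embryo than away from it (*Cdh5* and *Cldn5*), 2 lower (*Emcn* and *Robo4*) and 9 within 2-fold. The marker lists thus differed in direction around the embryo, and every result for that layer rests on the same library. The part of these markers in those results was not tested.

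Each change below is log2 CPM in one library minus that in another, computed with a prior count of 2. Values in brackets bound the ratio of the counts at 95% confidence (exact, Clopper-Pearson) and cover counting error only. A gene is called higher or lower here when it differed by 2-fold or more, without a test. In tissue libraries such as these, fewer cells of a type and less RNA per cell cannot be told apart. From day 3 morning to day 4 morning, 2 of the 10 genes were higher and 0 lower, where 7.96% of all genes were higher and 11.0% lower (19.0% together). With library totals 2 of the 10 were higher and 3 lower (*Vegfa*, *Kdr* and *Nrp1*) in this comparison, and on log2(RPKM + 1) 0 were higher and 1 lower. From day 4 morning to day 4 evening, 2 were higher and 1 lower, beside 7.15% and 6.96% of all genes (14.1% together). Set against day 4 morning, the layer away from the embryo had 3 genes higher and 1 lower, beside 14.6% and 14.5% of all genes (29.1% together). In the layer around the embryo, 3 were higher and 5 lower, beside 20.9% and 22.4% of all genes (43.3% together). Between the day 5 libraries, 3 were higher around the embryo and 6 lower, beside 13.7% and 14.5% of all genes (28.2% together). The median change of the 10 genes was 0.11, 0.55 and 0.29 in the first 3 of these comparisons, and that of all genes lay between -0.01 and 0.04. In the comparisons with the library around the embryo the median of the 10 genes was -1.04 and -1.22, beside -0.02 for all genes in each. These negative medians include *Vegfc*, *Angpt2*, *Angptl4* and *Kdr*, whose levels averaged under 5 CPM, and over the other 6 genes the medians were of opposite sign, 1.22 and 0.52. The 3 genes above 2-fold around the embryo were the same in both comparisons, *Vegfa*, *Adm* and *Flt1*, and both comparisons used that library.

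**Figure D1:**
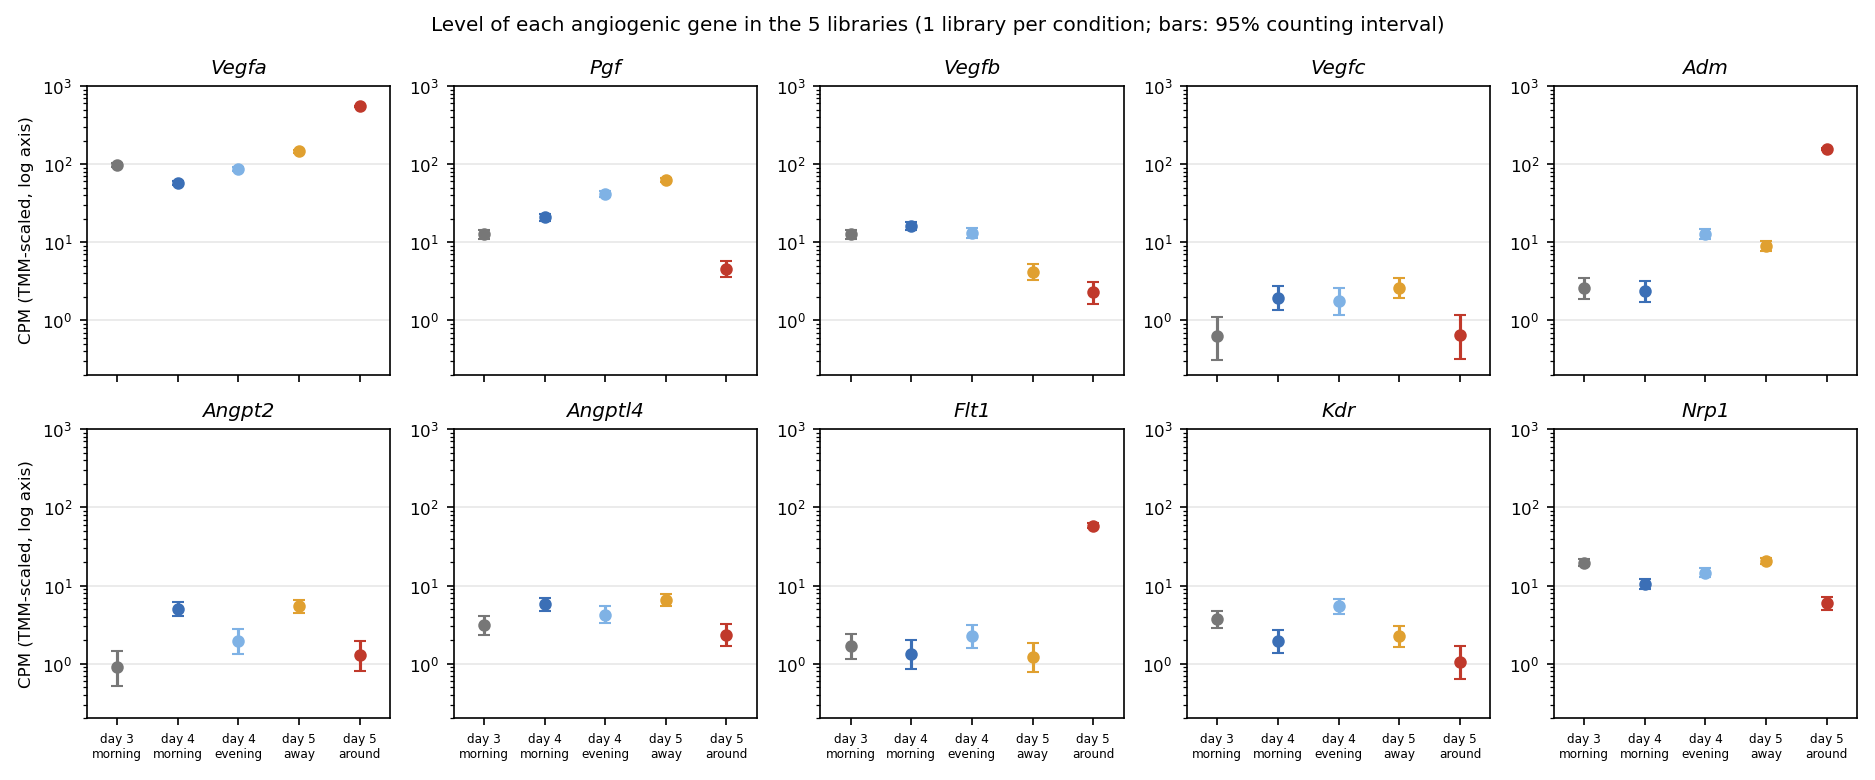
Level of each of the 10 genes in CPM on a log axis in the 5 libraries, with bars for the 95% counting interval. *Vegfa*, *Adm* and *Flt1* were highest around the embryo, while *Pgf*, *Vegfb*, *Angptl4*, *Kdr* and *Nrp1* were lowest there.

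The highest level lay away from the embryo for *Vegfc*, *Pgf*, *Angpt2*, *Angptl4* and *Nrp1*, and around it for *Vegfa*, *Adm* and *Flt1*. It lay on day 4 morning for *Vegfb* and on day 4 evening for *Kdr*. The lowest level lay around the embryo for *Vegfb*, *Pgf*, *Angptl4*, *Kdr* and *Nrp1*, and away from it for *Flt1*. It lay on day 3 morning for *Vegfc* and *Angpt2*, and on day 4 morning for *Vegfa* and *Adm*. Where the extremes of all genes lay was not counted, and 43.3% of all genes differed by 2-fold or more around the embryo from day 4 morning. The 5 levels of each gene were also ranked, and the counting intervals of neighbouring levels were compared. These intervals are narrower where counts are larger, and the same comparison was not made over all genes. All neighbouring levels lay apart for *Vegfa* and *Pgf*, and all overlapped for *Angptl4* and *Kdr*. Intervals of single levels that overlap do not exclude a difference beyond counting error. The interval of the ratio lay below 0 for *Kdr* around the embryo against day 4 morning (-0.82 [-1.79, -0.03]), which were neighbouring levels. The same held for *Vegfb* on day 4 evening against day 4 morning (-0.30 [-0.57, -0.04]).

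*Vegfa*, the main ligand of the family (GRCm38, chromosome 17, 46016993 to 46032377, minus strand), had the largest counts of the family in every library. Its level was 97.2 CPM on day 3 morning, 57.1 CPM and 86.5 CPM on the morning and evening of day 4, and 146 CPM away from and 550 CPM around the embryo on day 5, from 1019 counts at the lowest to 9345 at the highest. It was lowest on day 4 morning and higher in each library after that, and the library around the embryo stood above all others. Away from the embryo *Vegfa* was 2.56-fold its day 4 morning level (log2 1.36 [1.25, 1.46]), and around the embryo 9.63-fold (log2 3.27 [3.18, 3.36]). The library around the embryo exceeded the one away from it by 3.76-fold (log2 1.91 [1.85, 1.97]). From day 3 to day 4 morning the change was -0.77, inside 2-fold, and it was -1.10 when counts were scaled by library totals, which put the median of all genes at -0.29. The counts sum all transcripts of a gene, so they do not separate the splice forms of VEGF-A.

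*Pgf* (chromosome 12, 85166639 to 85177313, minus strand) encodes placental growth factor, which shares the receptor VEGFR1 with VEGF-A. Its level was 12.6 CPM on day 3 morning, 20.8 CPM and 41.6 CPM on the morning and evening of day 4, and 62.7 CPM away from and 4.59 CPM around the embryo on day 5. It was thus higher in each library from day 3 to day 5 away from the embryo, and lowest around the embryo. The difference from day 4 morning to day 4 evening was 1.00 [0.82, 1.19], just under the 2-fold limit (1.06 with library totals). Between the day 5 libraries *Pgf* was 13.3-fold lower around the embryo (log2 -3.74 [-4.12, -3.44]), the widest difference among the genes that were lower there. *Pgf* was the only one of the 10 genes past 2-fold in opposite directions in the 2 day 5 libraries, each against day 4 morning, and 1.25% of all genes were so.

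The stretch upstream of the start of these genes is printed below from RefSeq (GRCm38.p6) because *Vegfa* and *Pgf* had similar levels away from the embryo and opposite ones around it. Each run holds the 250 bases before the RefSeq start nearest to the gene's start in the count table, 5′ to 3′ on the gene's strand. Capitals mark GCGTG or its reverse complement CACGC, which together with ACGTG are the core letters of hypoxia-response elements. The *Vegfa* run lies at chr17:46032378-46032627 (minus strand) and the *Pgf* run at chr12:85177314-85177563 (minus strand).
Vegfa: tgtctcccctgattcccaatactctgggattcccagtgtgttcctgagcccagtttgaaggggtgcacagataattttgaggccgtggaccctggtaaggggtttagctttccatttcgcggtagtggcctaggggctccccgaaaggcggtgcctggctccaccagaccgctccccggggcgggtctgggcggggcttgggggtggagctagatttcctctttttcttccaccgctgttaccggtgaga
Pgf: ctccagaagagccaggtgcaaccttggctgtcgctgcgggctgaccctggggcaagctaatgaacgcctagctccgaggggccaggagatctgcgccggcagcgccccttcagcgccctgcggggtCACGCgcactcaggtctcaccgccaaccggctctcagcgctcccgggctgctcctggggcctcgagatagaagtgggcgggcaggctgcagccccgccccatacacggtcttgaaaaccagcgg
The letters GCGTG were absent from the *Vegfa* stretch and present once in the *Pgf* stretch. A match of 5 letters is a description of the sequence and not a binding site, and more distant sequence was not searched.

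*Vegfb* (chromosome 19, 6982472 to 6987651, minus strand), whose product binds VEGFR1 and is associated with fatty acid handling, had 12.7 CPM on day 3 morning, 16.3 CPM and 13.2 CPM on the morning and evening of day 4, and 4.21 CPM away from and 2.30 CPM around the embryo. Both day 5 libraries were below the 3 earlier ones. Against day 4 morning the change was -1.92 [-2.33, -1.59] in the distant layer and -2.77 [-3.35, -2.34] in the layer around the embryo, and between the day 5 libraries it was -0.84 [-1.47, -0.30] (-1.17 with library totals). *Vegfc* (chromosome 8, 54077532 to 54186454, plus strand), the lymphatic ligand of the family, was the scarcest ligand per length in every library, with 11, 35, 28, 49 and 11 counts from day 3 morning to day 5 around the embryo. It was 2-fold or more higher on day 4 morning than on day 3 (1.49 [0.64, 2.78]) and lower around the embryo than away from it (-1.84 [-3.10, -1.05]). These counts are small, and the intervals reach below 2-fold in the former case.

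Levels of different genes were compared per length, as RPKM (CPM per kilobase of the gene length given with the counts). On day 3 morning *Vegfa* led the ligands with 23.3 RPKM, followed by *Vegfb* with 9.89 RPKM and *Pgf* with 7.50 RPKM. On day 4 morning the 3 were at 13.7, 12.7 and 12.3 RPKM and their counting intervals overlapped. The lead of *Vegfa* seen on day 3 was thus not present on day 4 morning. On day 4 evening *Pgf* led with 24.8 RPKM over *Vegfa* with 20.7 RPKM. Away from the embryo *Pgf* had 37.2 RPKM (exact 95% Poisson interval 35.1 to 39.4) and *Vegfa* 35.0 RPKM (33.7 to 36.3), which overlapped. Around the embryo *Vegfa* had 132 RPKM and *Pgf* 2.73 RPKM, a ratio of 48.3. Around the embryo the ligands were therefore mostly *Vegfa*, which the shares of the summed RPKM also show. *Vegfa* made up 56.8% of the summed RPKM of the 4 ligands on day 3 morning, 34.4% and 36.5% on the morning and evening of day 4, and 45.5% away from and 96.4% around the embryo. The share of *Pgf* was 18.3%, 31.1%, 43.7%, 48.4% and 2.0% in the same order. The summed RPKM of the ligands was 41.0, 39.8, 56.7, 76.9 and 137.

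**Figure D2:**
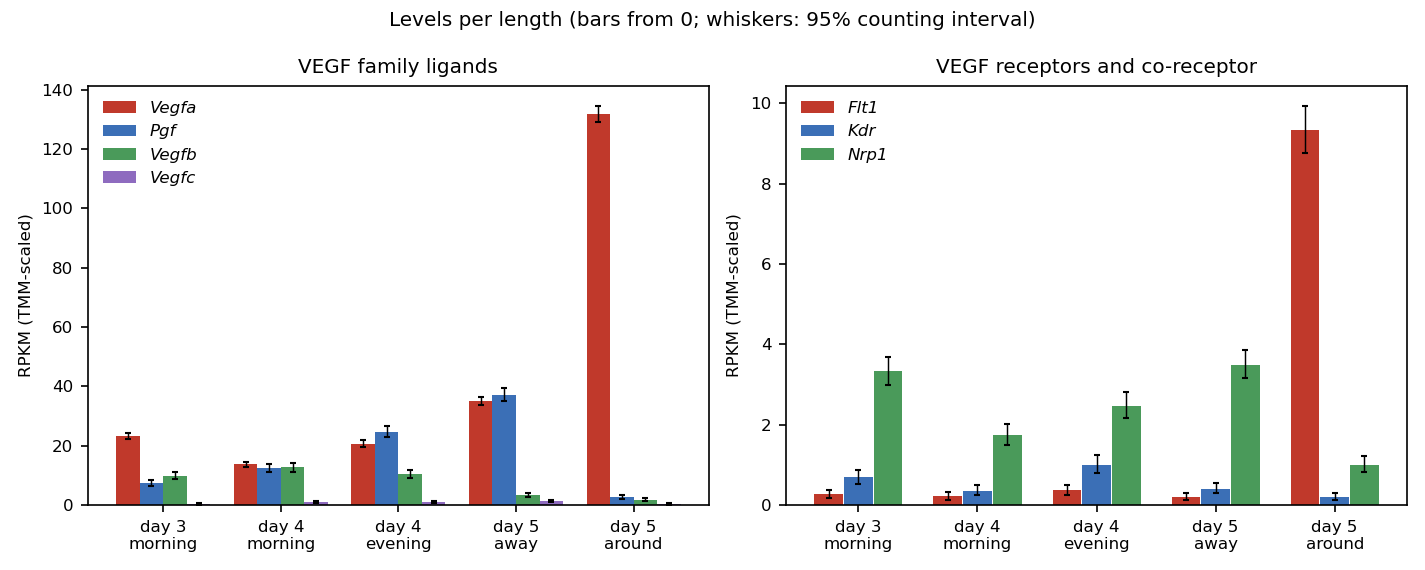
RPKM of the 4 VEGF family ligands (left) and of *Flt1*, *Kdr* and *Nrp1* (right) in the 5 libraries, with bars from 0 and whiskers for the 95% counting interval. *Vegfa* reached 132 RPKM and *Flt1* 9.34 RPKM around the embryo, whereas *Pgf* and *Nrp1* were highest away from it.

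*Flt1* (chromosome 5, 147562196 to 147725988, minus strand) encodes VEGFR1, which binds VEGF-A, VEGF-B and placental growth factor with little kinase activity and is also made as a soluble form. It had 30 counts on day 3 morning, 24 and 36 on the morning and evening of day 4, and 23 away from and 996 around the embryo. The first 4 libraries lay between 1.23 and 2.29 CPM with overlapping intervals, and the library around the embryo had 58.6 CPM. Around the embryo *Flt1* was 40.3-fold its day 4 morning level (log2 5.33 [4.87, 6.10]) and 43.8-fold its level away from the embryo (log2 5.45 [4.99, 6.25]). Gene counts do not tell the membrane form of VEGFR1 from the soluble form. In the same library the embryo and trophoblast markers summed to 151 CPM against 8.42 CPM away from the embryo, and 15 endothelial markers to 135 CPM against 76.7 CPM (62.5 and 69.6 CPM without *Cdh5*). The part of either in the level of *Flt1* was not tested.

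*Kdr* (chromosome 5, 75933270 to 75978428, minus strand) encodes VEGFR2, the main signalling receptor for VEGF-A on endothelium. It had 66, 35, 86, 42 and 18 counts from day 3 morning to day 5 around the embryo, so it was highest on day 4 evening at 5.46 CPM and lowest around the embryo at 1.06 CPM. The difference between day 4 evening and day 4 morning was 1.43 [0.90, 2.09]. Around the embryo *Kdr* was at -1.0 [-1.96, -0.25] relative to the layer away from it, at the 2-fold limit, and at -0.98 with the size factors of DESeq2. *Flt1* and *Kdr*, both endothelial receptors of VEGF-A, therefore differed in opposite directions between the day 5 libraries. In RPKM the ratio of *Flt1* to *Kdr* was 0.395 on day 3 morning, 0.595 and 0.363 on the morning and evening of day 4, and 0.475 away from and 48.0 around the embryo.

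*Nrp1* (chromosome 8, 128359073 to 128505475, plus strand) encodes neuropilin 1, a co-receptor for VEGF-A and for class 3 semaphorins. It was the most abundant of the 3 receptor genes per length in every library but the one around the embryo, with 3.33, 1.75, 2.48, 3.49 and 1.00 RPKM in the order above. Against day 4 morning it differed by 0.99 [0.74, 1.26] in the layer away from the embryo (1.28 with library totals) and by -0.79 [-1.17, -0.44] in the layer around it, both inside the 2-fold limit. Between the day 5 libraries it was 3.43-fold lower around the embryo (log2 -1.78 [-2.13, -1.48]). *Nrp1* overlaps a single other gene of the count table, *Mir1903*, and none of the other 9 genes overlaps any.

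The remaining VEGF receptors and their partners were counted from a list of 6 genes, of which 5 passed the CPM filter. Around the embryo 2 of these 5 were 2-fold or more higher than away from it and 0 lower, with a median of 0.97. *Flt4*, which encodes the VEGF-C receptor VEGFR3, had 9, 1, 5 and 8 counts in the earlier libraries and away from the embryo, and 84 around it (3.23 [2.49, 4.79] against away). *Nrp2*, its neuropilin partner, had 16, 43, 37, 18 and 40 counts. *Shb*, an adaptor that binds activated VEGFR2, was at 9.79, 11.1, 10.3, 19.9 and 39.3 CPM, and its difference between the day 5 libraries was 0.97 [0.79, 1.17]. The ligand *Vegfd*, listed as *Figf*, had at most 1 count in a library.

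*Adm* (chromosome 7, 110627669 to 110629819, plus strand) encodes adrenomedullin. It had 46 counts on day 3 morning, 42 and 201 on the morning and evening of day 4, and 170 away from and 2667 around the embryo, or 2.60, 2.35, 12.8, 9.06 and 157 CPM. The day 3 and day 4 morning libraries did not differ beyond counting error, day 4 evening and day 5 away from the embryo lay above them, and the library around the embryo lay above all. *Adm* was 5.22-fold higher on day 4 evening than on day 4 morning (log2 2.38 [1.95, 2.96]), the widest difference of the 10 genes in that comparison. Around the embryo it was 63.7-fold its day 4 morning level (log2 5.99 [5.62, 6.54]) and 17.1-fold its level away from the embryo (log2 4.10 [3.89, 4.35]). Per length, *Adm* reached 114 RPKM around the embryo, next to *Vegfa* at 132 RPKM, and these 2 genes made up 43.3% and 50.2% of the summed RPKM of the 10 genes.

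*Adm* and *Flt1* had the widest ranges over the libraries, 5.99 and 5.45 on the log2 scale, and their upstream stretches are printed for that reason, with the same capitals. The *Adm* run lies at chr7:110627407-110627656 (plus strand) and the *Flt1* run at chr5:147726012-147726261 (minus strand).
Adm: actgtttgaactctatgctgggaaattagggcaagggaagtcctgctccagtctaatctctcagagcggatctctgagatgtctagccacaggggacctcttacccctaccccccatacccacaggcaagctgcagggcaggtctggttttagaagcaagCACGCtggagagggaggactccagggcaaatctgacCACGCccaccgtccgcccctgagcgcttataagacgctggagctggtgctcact
Flt1: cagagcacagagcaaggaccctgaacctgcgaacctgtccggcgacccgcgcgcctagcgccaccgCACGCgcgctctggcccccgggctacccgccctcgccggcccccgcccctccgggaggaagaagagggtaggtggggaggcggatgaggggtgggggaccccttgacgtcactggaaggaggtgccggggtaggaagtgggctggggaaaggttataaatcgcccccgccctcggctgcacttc
GCGTG or its complement occurred at 2 positions upstream of *Adm* and at 1 upstream of *Flt1*. Upstream stretches were found in RefSeq for 8 of the 10 genes, all but *Angpt2* and *Angptl4*, and 6 of the 8 held GCGTG on either strand, among them *Kdr*, *Nrp1* and *Vegfb*, which were low around the embryo. Of 32851 stretches of the same length, 28.2% held it. The letters G and C made up between 56.8% and 76.4% of the 8 stretches, and the 28.2% was not matched for this content. The letters ACGTG, the other hypoxia-response core, were in 0 of the 8 and in 16.6% of all stretches. The letters TTCNNNGAA, which Stat proteins recognise, were in 0 of the 8 and in 7.02% of all stretches. Both strands were searched, and since GCGTG was the only motif found upstream of these genes, no matches of different motifs overlapped.

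Around the embryo *Calcrl* (-1.98), *Ramp3* (-1.61) and *Ramp1* (-1.14) were lower than on day 4 morning, the opposite direction to *Adm*. *Ramp2* did not differ from day 4 morning there beyond counting error (-0.23 [-0.75, 0.26]). In the distant day 5 layer both *Calcrl* and *Adm* stood above day 4 morning. *Calcrl*, which encodes the receptor, had 32.6, 20.9, 42.0, 60.7 and 5.24 CPM in the order of the libraries, highest away from the embryo and lowest around it. Against day 4 morning it differed by 1.00 [0.82, 1.19] on day 4 evening, just under the 2-fold limit, and by 1.53 [1.37, 1.71] away from the embryo, and around the embryo it was lower than away from it (-3.51 [-3.86, -3.22]). *Ramp2*, whose product gives the receptor its affinity for adrenomedullin, had 95, 77, 88, 163 and 62 counts, and *Ramp3*, which does the same, had 302, 133, 239, 170 and 40. Both were lower around the embryo than away from it, by -1.22 [-1.70, -0.82] and -1.89 [-2.48, -1.44]. *Ramp1*, which turns the receptor towards CGRP, had 26, 121, 47, 48 and 51 counts and differed little between the day 5 libraries (0.22 [-0.37, 0.83]). *Ackr3*, listed as *Cxcr7* and encoding a scavenger receptor of adrenomedullin and of a chemokine, had 203, 144, 226, 168 and 1822 counts and was higher around the embryo than away from it, as the ligand was (3.57 [3.35, 3.82]), but away from the embryo it differed from day 4 morning by 0.15 [-0.18, 0.48], where *Adm* was higher.

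*Pam*, the enzyme that amidates adrenomedullin into its active form, had 71.1, 51.6, 106, 205 and 150 CPM, so both day 5 libraries lay above the earlier ones. *Adm2*, a related peptide that uses the same receptor, had 13, 12, 0, 6 and 458 counts. In the library around the embryo it lay 5.96 [5.27, 7.85] above the one away from the embryo, and it is given as a partner of *Adm* although its mean level was low. Of the 10 listed partners 7 passed the filter, and between the day 5 libraries 2 were higher around the embryo, 3 lower and 2 within 2-fold, with a median of -0.45. The ratio of *Adm* to *Calcrl* in RPKM was 0.274, 0.385, 1.04, 0.512 and 103 in the order of the libraries. The ligand thus stood above its receptor around the embryo and below it in 3 libraries. On day 4 evening the intervals of *Adm* (9.24 RPKM, 8.01 to 10.6) and *Calcrl* (8.86 RPKM, 8.20 to 9.56) overlapped.

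**Figure D3:**
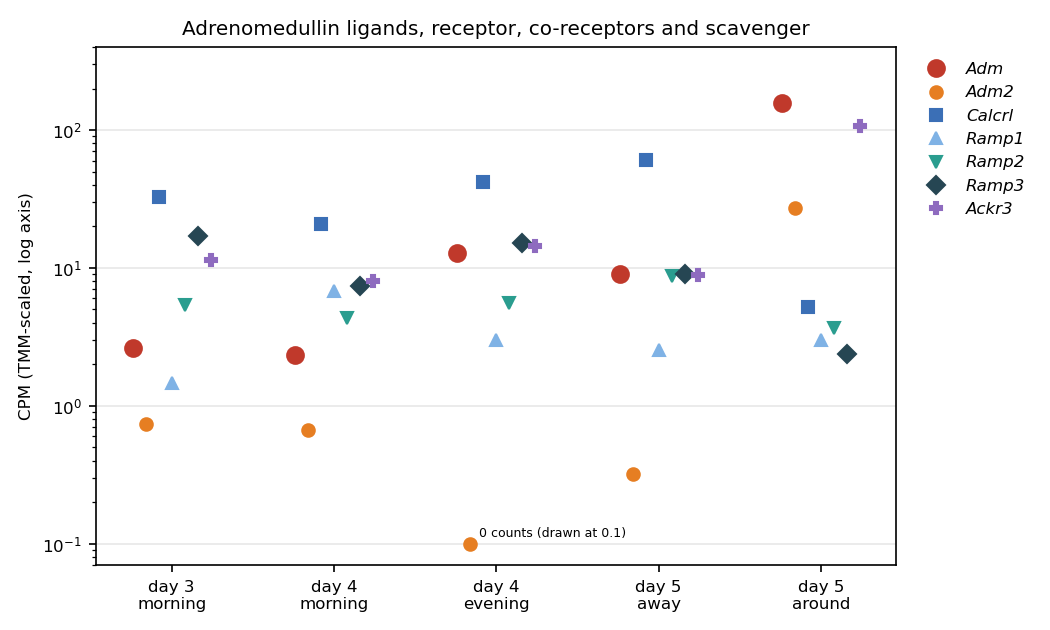
CPM on a log axis of *Adm*, *Adm2*, the receptor *Calcrl*, the 3 Ramp genes and the scavenger *Ackr3* in the 5 libraries, with 0 counts drawn at 0.1 CPM. *Adm* and *Ackr3* were highest around the embryo at 157 and 107 CPM, while *Calcrl* was 60.7 CPM away from it and 5.24 CPM around it.

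*Angpt2* (chromosome 8, 18690263 to 18741562, minus strand) encodes angiopoietin 2, which loosens vessels by competing with angiopoietin 1 at Tie2. It had 16 counts on day 3 morning, 90 and 31 on the morning and evening of day 4, and 102 away from and 22 around the embryo. The levels fell into a high pair, day 4 morning and day 5 away from the embryo at 5.04 and 5.43 CPM, and 3 lower libraries between 0.905 and 1.97 CPM. The change was 2.34 [1.70, 3.34] from day 3 to day 4 morning, -1.31 [-1.99, -0.75] from day 4 morning to evening, and -1.98 [-2.80, -1.39] between the day 5 libraries. *Angpt2* was the only gene of the 10 past 2-fold in both of the earlier comparisons, in opposite directions. *Angpt1*, the other ligand, did not pass the filter and had at most 17 counts.

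*Tek*, which encodes the receptor Tie2, had 23, 50, 48, 471 and 246 counts, so both day 5 libraries lay above the earlier ones. Against day 4 morning it was higher by 3.11 [2.74, 3.61] away from the embryo and by 2.32 [1.93, 2.84] around it. *Tie1*, its endothelial partner receptor, had 17, 21, 26, 15 and 8 counts. *Tek* is also among the endothelial markers, of which 3 were higher in the distant day 5 layer than on day 4 morning (*Tek*, *Eng* and *Ecscr*), 0 lower and 10 within 2-fold. Of the 5 genes of the angiopoietin list that passed the filter, 2 were lower around the embryo than away from it and 0 higher.

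*Angptl4* (chromosome 17, 33774900 to 33781575, minus strand) encodes a secreted inhibitor of lipoprotein lipase that is induced by fasting, hypoxia and PPAR ligands and also acts on vessels. It had 3.11, 5.77, 4.25, 6.55 and 2.36 CPM in the order of the libraries and the narrowest range of the 10 genes, 1.43 on the log2 scale. It was lower around the embryo than on day 4 morning (-1.25 [-1.86, -0.75]) and than away from the embryo (-1.43 [-2.03, -0.95]). Its target enzyme *Lpl* had 371, 111, 63, 23 and 32 counts. Of 8 PPAR receptors and responsive genes that passed the filter, 3 were higher around the embryo than away from it and 0 lower, with a median of 0.36. Among them *Plin2*, a lipid droplet coat protein, had 121, 163, 244, 182 and 769 CPM and differed by 2.08 [2.02, 2.13], the opposite direction to *Angptl4*. The receptor partner *Rxra* was within 2-fold between the day 5 libraries (-0.25), as were the fatty acid oxidation genes *Cpt1a* (-0.23) and *Acadl* (0.27).

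**Figure D4:**
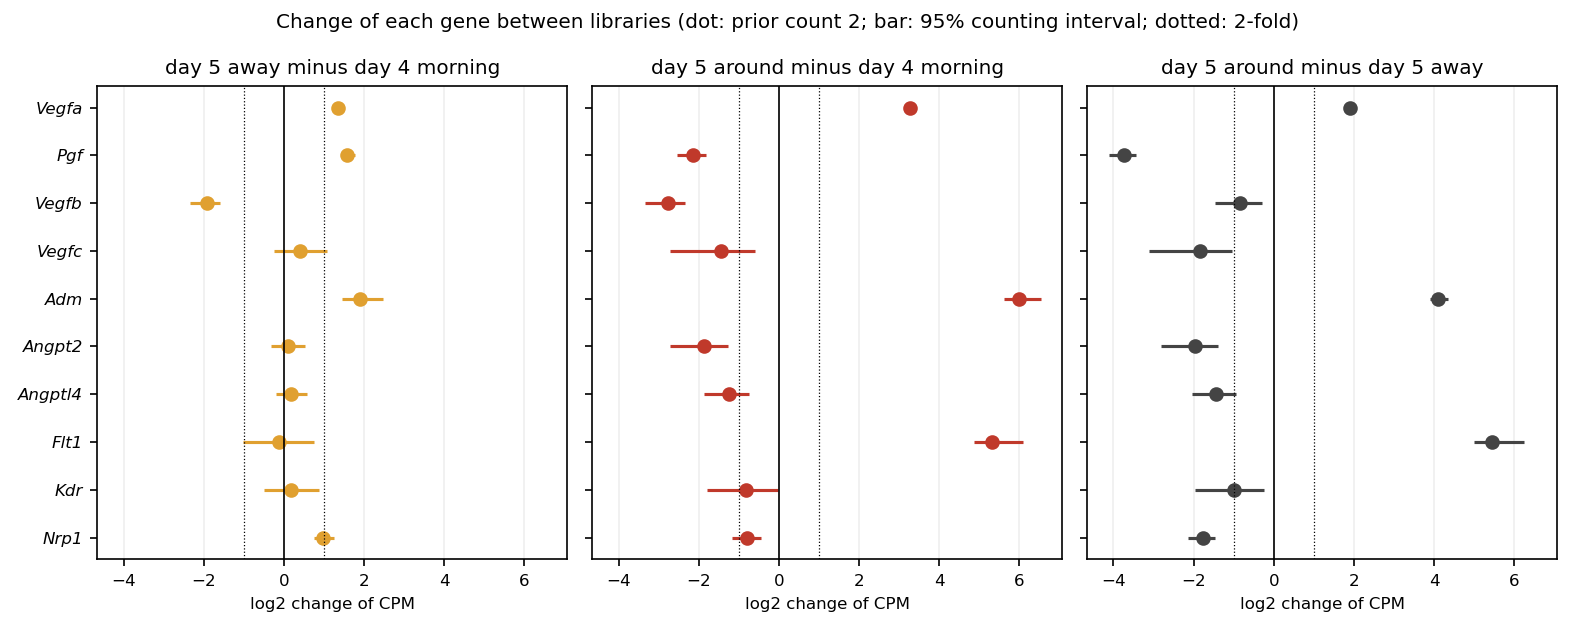
Log2 change of the 10 genes in 3 comparisons, with dots for the change at a prior count of 2, bars for the 95% counting interval and dotted lines at 2-fold. *Vegfa*, *Adm* and *Flt1* lay right of the upper line around the embryo, and *Pgf* lay on opposite sides of 0 in the left and middle panels, which share the day 4 morning library.

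Genes of neighbouring pathways were counted from lists, and each count can be read beside the share of all genes past 2-fold given above. The lists were chosen with earlier results of these data known, so these counts are a description and not independent evidence. Of 14 hypoxia-responsive genes, 14 were higher around the embryo than away from it, with a median of 2.62 beside -0.02 for all genes. Around the embryo against day 4 morning 12 were higher and 1 lower with a median of 2.61, and away from the embryo 4 were higher and 6 lower with a median of -0.48. *Ankrd37*, an ankyrin repeat gene induced by hypoxia, had 135, 59, 28, 68 and 2060 counts, and as for *Flt1* the library around the embryo stood far above the others. *Bnip3*, a mitophagy receptor, had 48.8, 66.5, 70.2, 237 and 1411 CPM. *Ndrg1*, a stress-response gene, had 65.2, 42.8, 193, 530 and 1097 CPM, higher in each library from day 4 morning on, like *Vegfa*. *Pfkfb3*, a regulator of glycolysis, was the member lower around the embryo than on day 4 morning, with 291, 729, 381, 24.6 and 100.5 CPM.

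Of 10 hypoxia-inducible factors and their regulators, 3 were higher around the embryo than away from it and 0 lower, with a median of 0.15. *Egln3*, a prolyl hydroxylase that marks hypoxia-inducible factors for breakdown, had 93, 14, 33, 68 and 3182 counts and differed by 5.65 [5.35, 6.06] between the day 5 libraries. *Egln1*, the other hydroxylase named, was lower in both day 5 libraries than on day 4 morning, at 518, 95.6 and 218 CPM on day 4 morning, away from and around the embryo. *Epas1*, which encodes HIF-2 alpha, was higher on day 5 to a like extent, by 2.06 [1.86, 2.29] away from the embryo and 1.98 [1.77, 2.21] around it. *Cited2*, an inhibitor of hypoxia-inducible factors, had 28.9 CPM on day 4 morning, 84.2 CPM away from the embryo and 101 CPM around it.

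Of 15 other angiogenic factors and receptors that passed the filter, 3 were higher and 5 lower around the embryo than away from it, with a median of -0.18. *Esm1*, which encodes endocan, a proteoglycan of activated endothelium, had 23, 1, 18, 1234 and 853 counts and was high in both day 5 libraries. Against the single count on day 4 morning it was higher by 8.59 [7.72, 15.5] away from the embryo and 8.20 [7.33, 15.1] around it. *Ccn1*, listed as *Cyr61*, a matrix protein that promotes angiogenesis, had 277, 33, 679, 1063 and 11714 counts and differed by 3.60 [3.52, 3.70] between the day 5 libraries. *Met*, the receptor of hepatocyte growth factor, had 42.0, 16.2, 26.3, 107 and 204 CPM. *Ptn*, the growth factor pleiotrophin, went the other way, with 80.2, 9.91, 9.08, 8.79 and 1.88 CPM.

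Of 10 inhibitors of angiogenesis that passed the filter, 6 were higher and 3 lower around the embryo than away from it, with a median of 1.31. *Thbs1*, which encodes thrombospondin 1, had 79.4, 219, 89.4, 9.06 and 116 CPM, so it was lowest away from the embryo. *Serpinf1*, which encodes pigment epithelium-derived factor, had 51.4, 46.5, 69.4, 38.8 and 6.01 CPM and was lowest around the embryo, with a difference of -2.67 from the layer away from it. *Sema3a* and *Sema3f*, class 3 semaphorins that compete with VEGF-A at neuropilins, were highest on day 3 morning at 40.6 CPM and around the embryo at 20.0 CPM, respectively. Between the day 5 libraries they were higher around the embryo by 1.51 [1.11, 1.98] and 2.29 [1.96, 2.70]. This was the opposite direction to *Nrp1* and the same direction as the other neuropilin gene, *Nrp2* (1.20 [0.46, 2.19], from 18 and 40 counts).

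**Figure D5:**
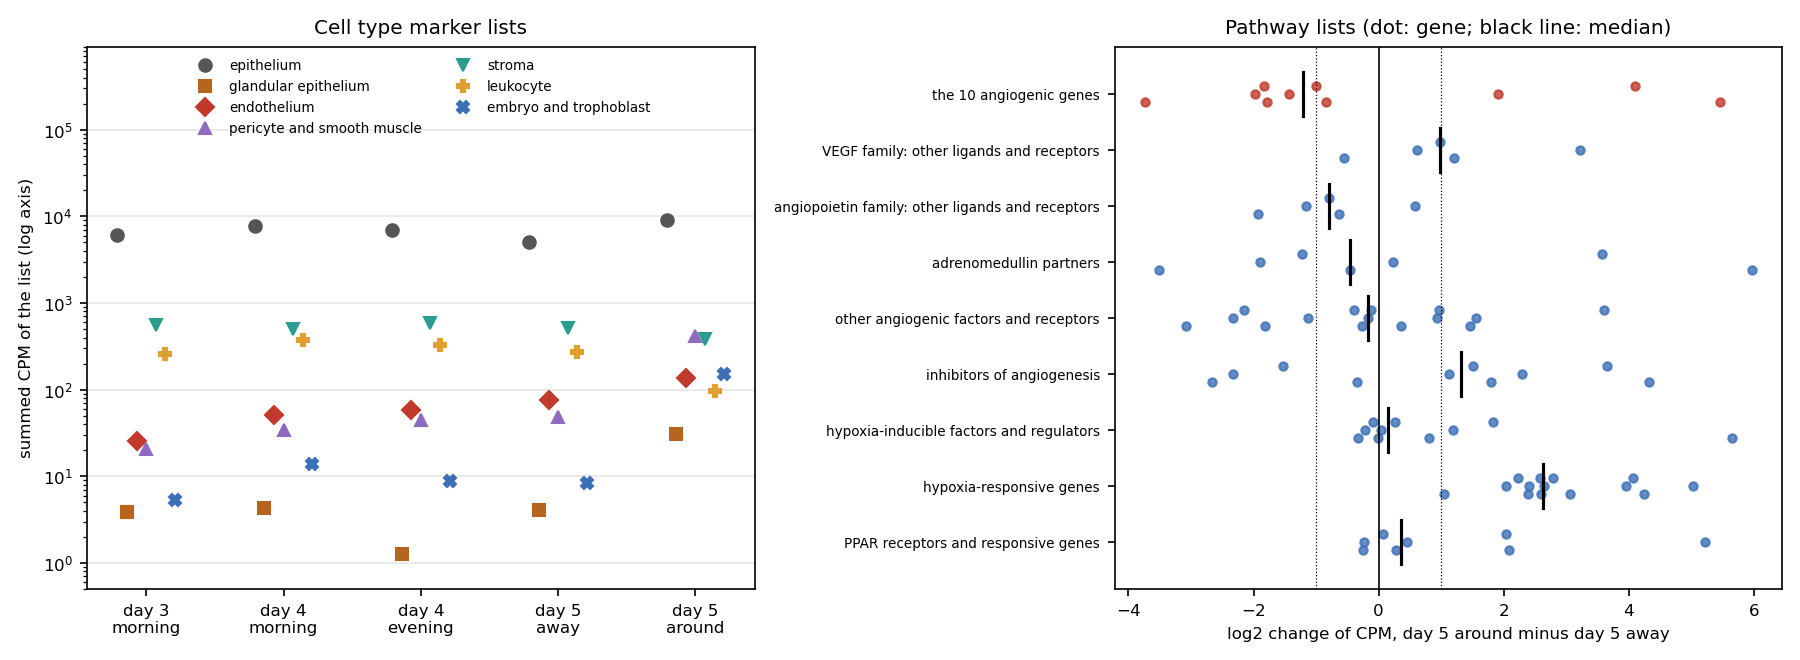
All lists were chosen with earlier results of these data known. Left, summed CPM of the cell type marker lists in the 5 libraries on a log axis. Right, log2 change of each gene of the pathway lists and of the 10 angiogenic genes around the embryo against away from it, with medians as black lines, where the 14 hypoxia-responsive genes all lay above the 2-fold line and the median of the 10 genes was -1.22 (0.52 over the 6 genes that averaged 5 CPM or more).

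For the 3 genes with the widest range, the genes with the most similar course were searched among the 8867 genes that averaged 10 CPM or more. Likeness was the mean absolute difference of log2 CPM over the 5 libraries after each gene was centred on its own mean, and with 5 libraries it is a description only. Closest to *Adm* were *Medag* (0.24), *Hmox1* (0.31), which encodes heme oxygenase, and *Serpinb5* (0.41), which encodes maspin. *Hmox1* had 11.5, 14.9, 30.4, 39.9 and 646 CPM. Closest to *Flt1* were *Ak4* (0.31), a mitochondrial adenylate kinase, *Tnc* (0.34), the matrix protein tenascin C, and *Upp1* (0.39), a uridine phosphorylase. *Ak4* had 26, 29, 37, 23 and 1929 counts, flat until the library around the embryo as for *Flt1*. Closest to *Pgf* were *Fmo1* (0.33), a flavin monooxygenase, *Mettl7a1* (0.35) and *Lrrc17* (0.38). *Fmo1* had 13.9, 14.3, 27.0, 32.7 and 2.06 CPM, highest away from the embryo and lowest around it.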

How the data were processed

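Luminal layers of wild-type uteri were microdissected, amplified with the SMART-seq v.4 kit and sequenced in pairs. The authors aligned the reads with HISAT2 to GRCm38/mm10, counted them per gene with featureCounts of Subread 2.0.0 and deposited raw counts without normalization. The deposited table also holds a gene length in bases. Annotation, strand and multimapping settings are not given in the sources used here.

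Counts were scaled by TMM in edgeR 4.0.16 (R 4.3.3), after genes with a mean CPM under 1 by library totals were left out. RPKM used the deposited gene length. Since conditions had no replicates, no dispersion was estimated and no test was run, and a limit of 2-fold was used, with exact counting intervals at 95% (scipy 1.17.1). Steps were tested on simulated data. In each gene list, up to 4 genes with the largest change and a mean of at least 10 CPM were named, with receptors and partners of the 10 genes added. *Zfp42*, *Pou5f1*, *Foxa2*, *Lif*, *Des*, *Hand2*, *Cdh5*, *Cldn5*, *Emcn*, *Robo4*, *Eng*, *Ecscr*, *Lpl* and *Angpt1* were named after their values were seen. The genes and lists were chosen with earlier results of these data known. Alternatives were DESeq2 1.42.0 size factors, library totals with and without *Rn45s* and *Lars2*, log2(RPKM + 1), a prior count of 0.5, a filter at a mean CPM of 5, no filter and, added after seeing the data, the scaling and filter without the library around the embryo.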

Additional observations from a re-analysis of the deposited data

Results flagged for a closer look

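*Pgf* and *Nrp1* moved in opposite directions in the 2 day 5 libraries when each was set against day 4 morning, by more than their counting intervals. *Pgf* was at 1.59 away from the embryo and at -2.15 around it, and *Nrp1* at 0.99 and -0.79 on the log2 scale. With 1 library on each side the difference was not tested against replicates, and both values of a gene share the day 4 morning library.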

How the results depend on the processing

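Of 360 values recomputed for single genes under the alternatives, 333 kept their side of the 2-fold limit, 10 fell under it, 17 passed it, and 0 changed sign while past it. The number of the 10 genes past 2-fold from day 3 to day 4 morning was 2 (2 higher, 0 lower), and it was 5 with library totals (2 and 3), 4 with totals without *Rn45s* and *Lars2* (2 and 2), 1 on log2(RPKM + 1) (0 and 1) and 0 at a mean CPM of at least 5, which left 6 of the 10 genes. From day 4 morning to evening it was 3, and 1 under both of the latter. Around the embryo against day 4 morning it was 8, and 5 under both of the latter. Between the day 5 libraries it was 9, and 8 with DESeq2 size factors. With library totals it was 10, with or without *Rn45s* and *Lars2*. At a mean CPM of at least 5 it was 5. The latter filter turned the median of the 10 genes from -1.04 to 1.22 around the embryo against day 4 morning, from -1.22 to 0.52 between the day 5 libraries and from 0.11 to -0.24 from day 3 to day 4 morning, where it was -0.22 with library totals. Library totals moved the median of all genes to -0.29 from day 3 to day 4 morning, to 0.28 from day 4 morning to day 5 away from the embryo and to -0.36 between the day 5 libraries. Of 76 counts over all genes, 57 stayed within 1.5 times. With library totals, 538 genes were higher and 2209 lower from day 3 to day 4 morning (1028 and 1420 with TMM), 2690 and 1399 from day 4 morning to the distant day 5 layer (1888 and 1877), and 1288 and 2807 between the day 5 libraries (1768 and 1872). On log2(RPKM + 1), 185 were higher from day 3 to day 4 morning, 404 higher and 248 lower from day 4 morning to evening (924 and 899 with TMM), 937 lower in the distant day 5 layer than on day 4 morning, and 919 higher between the day 5 libraries. With no filter, the first 2 comparisons had 1686 and 1932 higher and 2682 and 1653 lower, and those with day 5 libraries had 2858, 4321 (2698 with the filter) and 3110 higher. At a mean CPM of at least 5, the first 2 comparisons had 588 and 537 higher and 861 and 493 lower, and 1245 were lower between the day 5 libraries. Without the library around the embryo, the counts of the 10 genes were 2, 4 and 5 in the 3 comparisons that do not use it. No paired analysis was possible because each condition has 1 library and the labels carry no replicate numbers. Depth limits the scarce genes, since a level that rests on under 35 counts, as for *Flt1* in 3 libraries, has a counting interval that spans more than 2-fold.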
